A study of Homo sapiens with 4 samples.

Results

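The 32 genes described here encode the machinery of autophagy and of the lysosome. They were taken by symbol from a list drawn up with earlier results of these data known, and all 32 were found among the 58336 genes of the deposited count table, each in a single row. They were measured by RNA sequencing in 2 established human gastric cancer cell lines, AGS, which grows as epithelium and comes from a gastric adenocarcinoma, and HGC-27, from an undifferentiated gastric carcinoma, both labelled wild type. Each line gave 1 library from control cells and 1 from cells kept for 1 day in 10 nM estradiol (E2), the main oestrogen; the labels name no vehicle for the controls. The design thus compares the lines (2 libraries each) and estradiol with control (2 libraries each, paired by line). Within a line there is no replicate. No label names separate cultures, so p-values measure only the spread left between these libraries once line and treatment are fitted. That spread holds any difference between the lines in their change with estradiol, and it may also be technical.

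Autophagy is the route by which a cell encloses its own proteins and organelles in a double membrane, the autophagosome, and delivers them to the lysosome for digestion. The lysosome is kept acid by a proton pump, the V-ATPase, and holds proteases, glycosidases and lipid hydrolases that work at low pH. When nutrients run short, the kinase ULK1 starts the process, and the transcription factors TFEB and TFE3 enter the nucleus and switch on many genes of both compartments by binding a short palindromic element built around CACGTG, known as the CLEAR element.

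The libraries held 24597379 to 28734374 counts, and 3 counts corresponded to 0.104 to 0.12 CPM (counts relative to the TMM-scaled library size). Markers of cell type separated the lines, which does not show the identity of either. All 8 epithelial markers were higher in AGS, taking 0.616% and 0.646% of its counts against 0.00716% and 0.0077% in HGC-27. Of 7 tested mesenchymal markers, 6 were higher in HGC-27 and 1 in AGS. Gastric epithelial markers were partial, with GKN1 at 0 counts in all libraries and TFF1 at 0 in HGC-27. Markers of fibroblasts and endothelium took 0.172% and 0.18% of HGC-27 counts (COL1A1, LUM and DCN led them) against 0.00126% and 0.00108% in AGS, with the endothelial PECAM1 and CDH5 at 0 in both HGC-27 libraries. Their part in the differences between the lines was not tested, and in bulk RNA fewer cells of a type and less RNA per cell cannot be told apart. ESR1, a nuclear oestrogen receptor, had at most 5 counts in any library. Levels of other oestrogen receptors are not given here. Leukocyte markers summed to 13 to 32 counts per library.

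All 32 genes passed the filter on low counts. Together they took 0.388% and 0.366% of the counts in AGS control and estradiol, and 0.269% and 0.275% in HGC-27. To compare levels between genes, counts were divided by the deposited gene length and scaled to the same total in each library (TPM). PSAP, the precursor of the saposins that help lysosomal enzymes reach their lipids, had the highest level in both lines, at 643 and 622 TPM in AGS control and estradiol and 605 and 635 TPM in HGC-27. It ranked 120 among all genes in AGS control and 136 in HGC-27 control. Below it the order of the lines parted. In AGS control it ran GALC (284 TPM), LAMP1 (252), NPC2 (163), SQSTM1 (136) and CTSB (126), and in HGC-27 control LAMP2 (146), SQSTM1 (121), CTSL (119), LIPA (112) and LAMP1 (92.9). SQSTM1 and CTSL are not ordered in HGC-27, since its estradiol library gave 118 and 121 TPM. TFEB was the lowest member measured in AGS apart from CTSL, at 4.31 and 3.73 TPM, and stood at 4.81 and 5.26 TPM in HGC-27, beside HEXA at 4.57 and 4.42. The deposited lengths join all exons of a gene, so a long gene model such as HEXA (12611 bases) or ASAH1 (15378 bases) lowers its TPM.

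**Figure D1:**
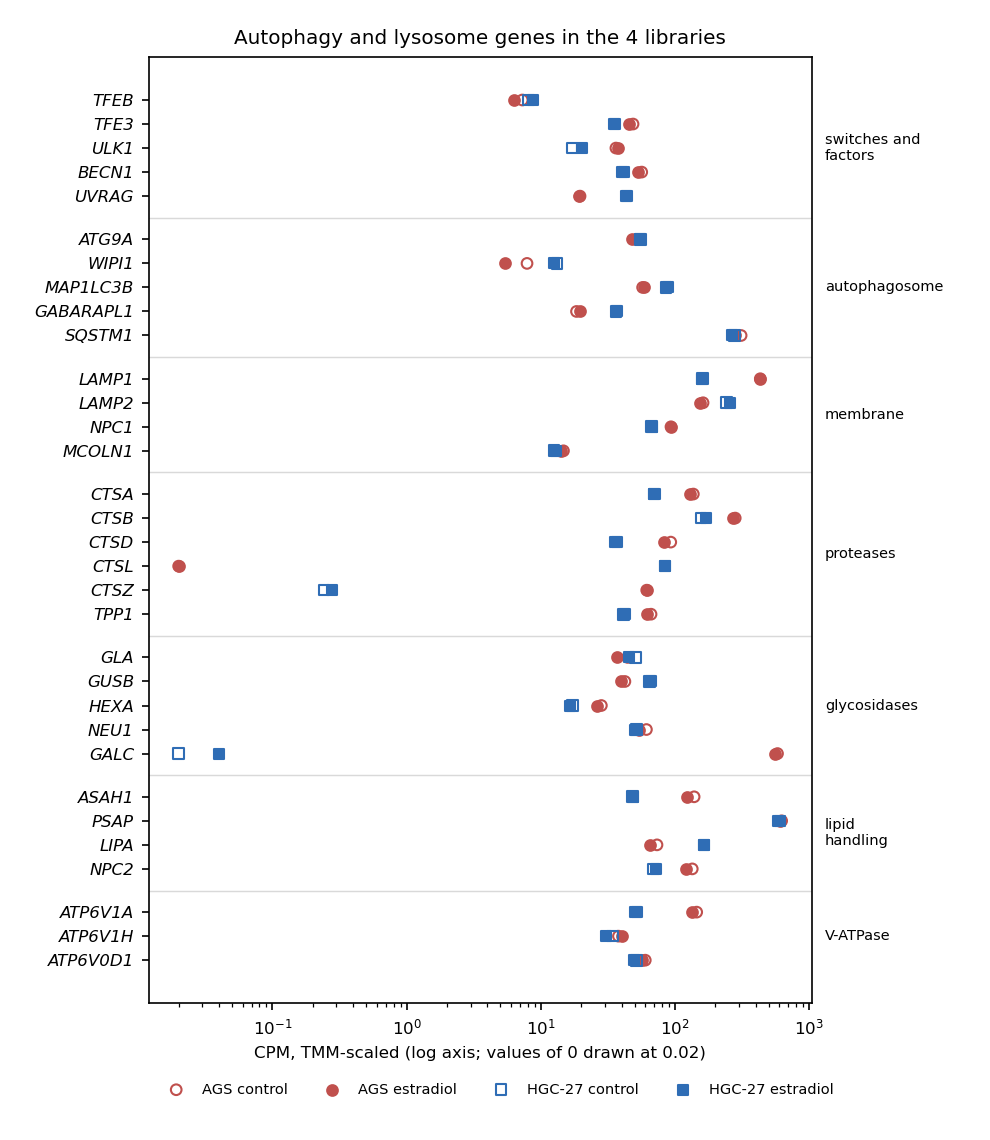
Level of each of the 32 genes in CPM (log axis) in AGS (red circles) and HGC-27 (blue squares), open for control and filled for estradiol, 1 library per point, with values of 0 drawn at the left edge. GALC, CTSL and CTSZ are spread over orders of magnitude between the lines, while the control and estradiol points of a line lie close together for most genes.

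Most members differed between the lines, at about the share of other genes of their depth. Of the 32, 28 (87.5%) had an adjusted p under 0.05 by edgeR's quasi-likelihood test over 18278 genes, where 77.2% of all tested genes and 84.4% of the 11952 genes averaging at least 100 counts did. All members averaged at least 100. Higher in AGS were 19 members (35.7% of all tested genes were), and higher in HGC-27 were 9 (41.5%). These 2 shares, also given below, cover genes of any depth, fewer of which were called. Of all calls, 46.3% were higher in AGS, and 48.3% were in a fit to genes averaging at least 100 counts. The median log2 difference, AGS minus HGC-27, was 0.24 over the members and -0.10 over all tested genes, and it was the same with CTSL at its bound. A difference of over 2-fold was seen for 9 members, 28.1%, against 36.3% of genes of at least 100 counts. The members not past the threshold were TFEB, ATG9A, MCOLN1 and PSAP.

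**Figure D2:**
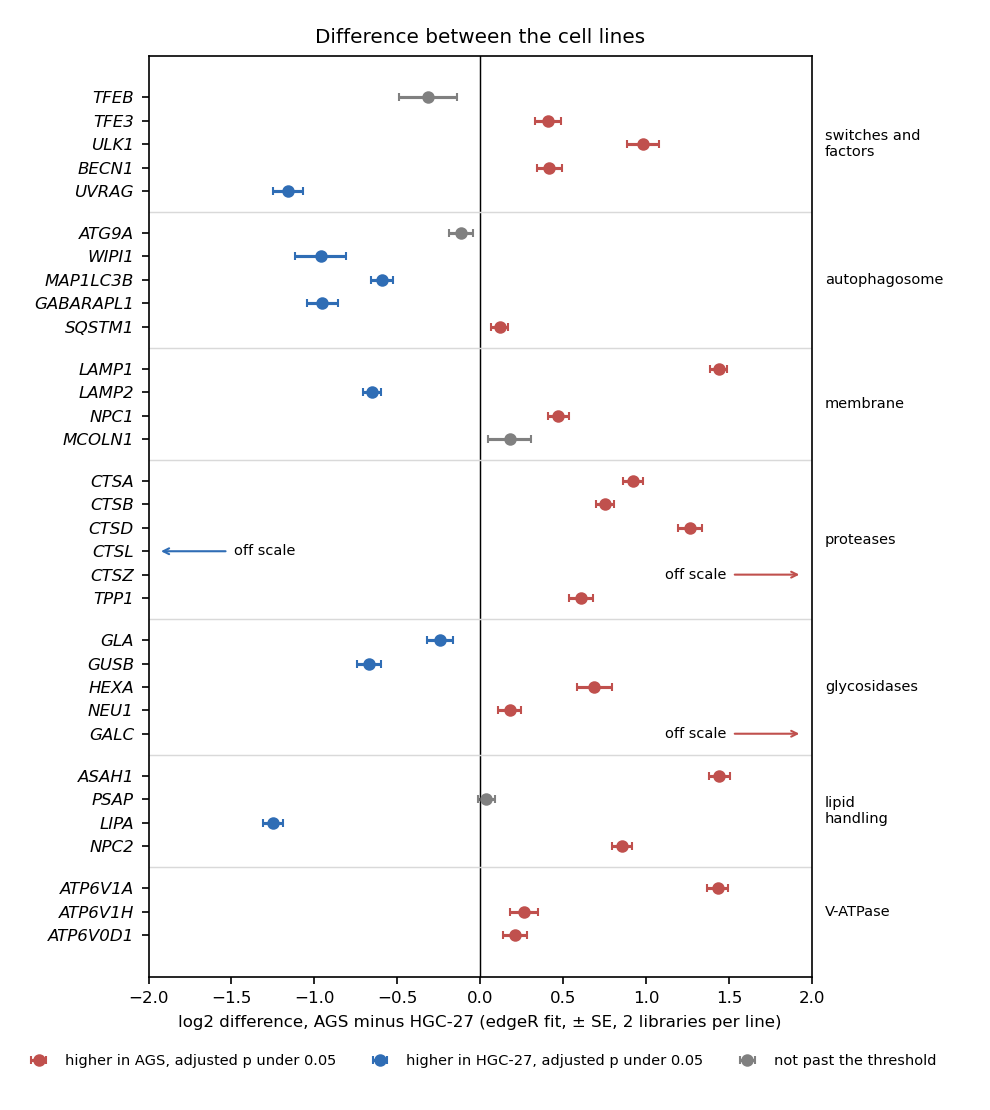
Fitted log2 difference between the lines, AGS minus HGC-27, for each gene with its SE (2 libraries per line), ordered by role. CTSL, CTSZ and GALC lie outside the axis, in the directions of the arrows; the other genes lie between -1.25 (LIPA) and 1.44 (LAMP1 and ASAH1).

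Against this background, 3 lysosomal enzymes were present in one line and nearly or wholly missing from the other. GALC (ENSG00000054983, chromosome 14, 87837820 to 87993665, minus strand), which removes galactose from galactosylceramide and whose loss causes Krabbe disease, had 15074 and 15266 counts in AGS control and estradiol against 0 and 1 in the HGC-27 pair. The ratio of the summed, scaled counts was 30506 (95% exact counting interval 5475 to 1204970). CTSZ (ENSG00000101160, chromosome 20, 58995185 to 59007247, minus strand), a carboxypeptidase of the cathepsin family, had 1598 and 1696 counts in the AGS pair against 7 and 7 for HGC-27, a ratio of 237 (141 to 433). CTSL (ENSG00000135047, chromosome 9, 87725519 to 87731393, plus strand), the endopeptidase cathepsin L, went the other way, with 0 counts in both AGS libraries and 2436 and 2105 in HGC-27. It was at least 752-fold higher in HGC-27, taking 3 counts per library as the floor. Intervals and floors cover counting error only. Over all genes, 121 of 5803 with a mean of at least 1000 counts in AGS had under 10 in HGC-27 (2.09%), and 254 of 5743 the reverse (4.42%).

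The 250 bases before the RefSeq start of these 3 genes (GRCh38.p14, printed 5′ to 3′ along the gene) are shown because these members differed most. The RefSeq start can differ from the start of the deposited gene. The stretches of GALC and CTSL lie inside the gene bounds given above. Capitals mark each CG pair, the site of DNA methylation.
GALC, chr14:87993183-87993432, minus strand: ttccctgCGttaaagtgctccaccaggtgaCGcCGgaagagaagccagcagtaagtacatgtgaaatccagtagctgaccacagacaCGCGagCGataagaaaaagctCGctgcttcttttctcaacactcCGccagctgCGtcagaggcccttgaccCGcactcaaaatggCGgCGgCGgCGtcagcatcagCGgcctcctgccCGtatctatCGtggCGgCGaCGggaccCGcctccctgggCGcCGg
CTSZ, chr20:59007255-59007504, minus strand: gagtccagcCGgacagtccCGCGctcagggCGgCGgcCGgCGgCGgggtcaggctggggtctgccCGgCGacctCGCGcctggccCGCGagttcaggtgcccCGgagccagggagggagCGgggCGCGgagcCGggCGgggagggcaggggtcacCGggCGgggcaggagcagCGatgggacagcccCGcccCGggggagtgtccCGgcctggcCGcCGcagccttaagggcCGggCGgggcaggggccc
CTSL, chr9:87725869-87726118, plus strand: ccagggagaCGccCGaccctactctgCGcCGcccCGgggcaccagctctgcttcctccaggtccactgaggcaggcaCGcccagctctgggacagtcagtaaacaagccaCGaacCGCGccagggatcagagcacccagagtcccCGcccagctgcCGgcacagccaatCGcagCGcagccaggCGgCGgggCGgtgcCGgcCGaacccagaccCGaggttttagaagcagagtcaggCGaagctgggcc
The stretches hold 23, 30 and 20 CG pairs, with 60.8%, 81.2% and 69.2% G or C. Methylation was not measured. Over the whole 300-base windows, the ratio of observed to expected CG pairs was 0.894, 0.789 and 0.761, beside a median of 0.829 over 10837 tested protein-coding genes.

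Of the 5 starvation switches and transcription factors, 3 were higher in AGS and 1 in HGC-27, where 35.7% and 41.5% of all tested genes were. TFEB stood at 7.27 and 6.30 CPM in AGS control and estradiol and 8.12 and 8.76 CPM in HGC-27. It did not pass the test (log2 difference -0.32 ± 0.17 SE, adjusted p = 0.0875). Its relative TFE3, which binds the same element, stood at 48.6 and 45.6 CPM in AGS and 35.6 and 35.3 in HGC-27 (0.41 ± 0.08). Per length, TFE3 lay well above TFEB, at 37.98 against 4.31 TPM in AGS control and 27.8 against 4.81 TPM in HGC-27 control. ULK1, the kinase that starts autophagosome formation, had the largest difference in favour of AGS in this group, with 36.2 and 37.6 CPM against 17.1 and 20.4 (0.98 ± 0.09, adjusted p = 6.9e-22). Beclin 1 (BECN1), a core part of the lipid kinase complex that marks the nascent membrane, stood at 56.4 and 53.2 against 40.2 and 41.9 CPM (0.42 ± 0.07). UVRAG, which joins beclin 1 in a complex that serves later, maturation steps, was the exception: 19.6 and 19.2 CPM in AGS lay below 43.7 and 42.8 in HGC-27 (-1.16 ± 0.09, adjusted p = 5.72e-31). Leaving out the AGS control library brought TFEB past the threshold (adjusted p = 0.0311).

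Of the 5 genes of the autophagosome itself, 3 were higher in HGC-27 and 1 in AGS, where 41.5% and 35.7% of all tested genes were. MAP1LC3B, whose protein LC3B is attached to lipid in the growing membrane, stood at 57.3 and 58.8 CPM in AGS control and estradiol and 85.5 and 89.3 CPM in HGC-27 (-0.59 ± 0.07). GABARAPL1, of the same ubiquitin-like family, stood at 18.4 and 19.5 against 36.2 and 37.1 CPM (-0.95 ± 0.09). They were 1.51-fold and 1.93-fold higher in HGC-27. WIPI1, which reads the lipid mark, stood at 7.89 and 5.43 against 13.2 and 12.5 CPM (-0.96 ± 0.16). ATG9A, the lipid scramblase carried by the vesicles that seed the membrane, did not pass (-0.11 ± 0.07, adjusted p = 0.14), but it did without the AGS control library (adjusted p = 0.0438), over genes of at least 100 mean counts (0.0196) and over protein-coding genes alone (0.0286). SQSTM1 (p62), the receptor that carries ubiquitinated cargo into the autophagosome, passed by little, with 310.6 and 280.7 CPM in AGS and 278.0 and 266.7 in HGC-27 (0.12 ± 0.05, adjusted p = 0.0307). The AGS libraries lay farther apart than AGS estradiol and HGC-27 control did. It was past the threshold neither in limma-voom (0.0581) nor with unscaled totals (0.124), nor over genes of at least 100 mean counts (0.276) or protein-coding genes alone (0.18), nor without the AGS control (0.348) or the HGC-27 estradiol library (0.195). Exons of SQSTM1 overlap those of MRNIP on the opposite strand over 20.7% of their length, and those of WIPI1 overlap ARSG over 24.3%. Whether counting used the strand is not stated, so reads of these pairs cannot be told apart. Of the ATG9A exon bases, 38.8% are also annotated to another gene on the same strand, which had 19 counts in all. MAP1LC3B shares 9.3% of its 31-base stretches with its near copy MAP1LC3B2, which had 200 counts in all, so a small part of its reads could fall on either.

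The major membrane proteins of the lysosome, LAMP1 and LAMP2, differed in opposite directions. LAMP1 (chromosome 13, 113297241 to 113323672, plus strand) stood at 432 and 429 CPM in AGS control and estradiol and at 159 and 158 CPM in HGC-27, 2.71-fold higher in AGS (1.44 ± 0.05, adjusted p = 2.05e-92). LAMP2, which also serves chaperone-mediated autophagy, stood at 162 and 154 CPM in AGS and 242 and 255 in HGC-27, 1.57-fold higher in HGC-27 (-0.65 ± 0.05, adjusted p = 1.01e-28). LAMP1 was above LAMP2 per length in AGS control (252 against 97.9 TPM) and below it in HGC-27 control (92.9 against 146 TPM). NPC1, the membrane protein that exports cholesterol, stood at 93.2 and 92.6 CPM in AGS and at 67.0 in both HGC-27 libraries (0.47 ± 0.06). MCOLN1, a calcium channel that activates the phosphatase acting on TFEB, did not pass (0.18 ± 0.13, adjusted p = 0.199).

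LAMP1 is also the member richest in the CLEAR core. The 250 bases before its RefSeq start hold 5 copies of CACGTG, shown in capitals, and a sixth begins at the base just before the start and runs past the end of the stretch.
LAMP1, chr13:113296989-113297238, plus strand: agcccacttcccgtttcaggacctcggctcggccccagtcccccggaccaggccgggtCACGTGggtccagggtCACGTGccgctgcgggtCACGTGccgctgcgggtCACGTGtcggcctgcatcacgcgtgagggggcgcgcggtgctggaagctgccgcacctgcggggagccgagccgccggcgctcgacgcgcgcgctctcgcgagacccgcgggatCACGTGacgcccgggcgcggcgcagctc
Stretches of the other members with the core before the start are shown for comparison, and the capitals again mark CACGTG.
MCOLN1, chr19:7522571-7522600, plus strand: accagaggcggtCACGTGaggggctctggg
MCOLN1, chr19:7522598-7522623, plus strand: gggctaccgggtCACGTGaccgaggc
CTSA, chr20:45891281-45891310, plus strand: gaggaagactgtCACGTGgcgccggagttc
CTSA, chr20:45891298-45891327, plus strand: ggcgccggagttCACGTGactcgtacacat
CTSD, chr11:1763957-1763986, minus strand: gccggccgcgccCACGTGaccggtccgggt
ATP6V0D1, chr16:67481199-67481228, minus strand: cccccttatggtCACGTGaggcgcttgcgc
NEU1, chr6:31862930-31862959, minus strand: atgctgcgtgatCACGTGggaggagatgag
CACGTG equals its own reverse complement, so each match counts for both strands. RefSeq windows of 250 bases before to 50 after the start were matched for 24 of 32 members (not for ASAH1, ATP6V1A, ATP6V1H, CTSB, HEXA, LAMP2, PSAP and UVRAG). CACGTG was in 6 of 24, beside 9.82% of 10837 tested protein-coding genes and 7.43% of all 27305 windows. The longer GTCACGTG, on either strand, was in 5 of 24 (20.8%) beside 4.22% and 2.53%, and the full palindrome, GTCACGTG followed by AC, which contains both shorter motifs, in 1 (4.17%, MCOLN1) beside 0.766% and 0.381%. The 118 matched windows of the wider autophagy and lysosome lists held CACGTG in 25 (21.2%). The palindrome of the oestrogen receptor, GGTCA and TGACC with any 3 bases between, was in 0 of 24 member windows and in 0.066% of all windows. In a count made after the line values were seen, all 6 members with CACGTG had a line difference above 0. Of them 5 passed the threshold (MCOLN1 did not), where 35.7% of all tested genes were higher in AGS. The calls of NEU1 and ATP6V0D1 changed in other settings. Line differences of other genes with CACGTG were not counted. Of the 18 members without CACGTG, 9 were higher in AGS and 7 in HGC-27. These are descriptions of a short window, and a match is not a bound site. Some windows, such as those of BECN1 and MAP1LC3B, lie inside the deposited gene bounds.

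Among the 6 lysosomal proteases, 5 were higher in AGS and only CTSL was higher in HGC-27, where 35.7% and 41.5% of all tested genes were. Cathepsin D (CTSD), the main aspartic protease of the lysosome, stood at 92.9 and 82.2 CPM in AGS control and estradiol and at 36.8 and 36.0 CPM in HGC-27 (1.26 ± 0.07, adjusted p = 1.28e-52). Cathepsin B (CTSB), a cysteine protease, stood at 281 and 269 against 157 and 170 CPM (0.75 ± 0.05). Cathepsin A (CTSA), the carboxypeptidase that protects neuraminidase 1 and beta-galactosidase, stood at 137 and 128 against 70.1 and 69.8 CPM (0.92 ± 0.06). All 3 passed the threshold between the lines, as did 84.4% of genes averaging at least 100 counts. TPP1, a tripeptidyl peptidase whose loss causes a neuronal ceroid lipofuscinosis, stood at 66.2 and 61.8 against 41.4 and 42.6 CPM (0.61 ± 0.07). The exons of CTSD share 41.7% of their bases with a second annotated gene on the same strand, which had 16 counts in all, and those of CTSA 17.7% with NEURL2 on the opposite strand.

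The other glycosidases differed far less than GALC, and in both directions. HEXA, a subunit of the hexosaminidase that degrades ganglioside GM2, was at 28.24 and 26.01 CPM in AGS control and estradiol and 17.2 and 16.4 CPM in HGC-27 (0.69 ± 0.10). GUSB, beta-glucuronidase, was at 42.3 and 39.5 against 64.3 and 65.9 CPM (-0.67 ± 0.07). Both passed the threshold between the lines, as did 84.4% of genes averaging at least 100 counts. Alpha-galactosidase (GLA), the Fabry disease enzyme, was at 44.4 and 36.8 CPM in AGS against 50.6 and 45.3 (-0.24 ± 0.08, adjusted p = 0.0026). Neuraminidase 1 (NEU1), which removes sialic acids, was at 61.2 and 54.0 against 51.9 and 49.9 CPM (0.18 ± 0.07, adjusted p = 0.0184). For both, the control and estradiol libraries of AGS lay farther apart than the nearest libraries of the lines. GLA did not pass without the AGS estradiol library (0.28) or the HGC-27 control (0.112). NEU1 did not pass without the AGS control (0.262) or the HGC-27 estradiol library (0.137), nor in DESeq2 (0.0647), limma-voom (0.0574) or the settings that cost SQSTM1 its call.

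Lipid handling set the lines apart enzyme by enzyme. Acid ceramidase (ASAH1), which splits ceramide into sphingosine and fatty acid, stood at 139 and 123 CPM in AGS control and estradiol and 48.1 and 48.3 CPM in HGC-27 (1.44 ± 0.06, adjusted p = 1.17e-72). Lysosomal acid lipase (LIPA), which frees cholesterol from its esters, stood at 73.3 and 65.4 against 164 and 165 CPM, 2.38-fold higher in HGC-27 (-1.25 ± 0.06, adjusted p = 7.11e-66). NPC2, the soluble carrier that hands this cholesterol to NPC1, was higher in AGS (134 and 121 against 69.1 and 72.3 CPM, 0.85 ± 0.06), as NPC1 was. PSAP, by contrast, overlapped between the lines, with 623 and 602 CPM against 586 and 607 (0.04 ± 0.05, adjusted p = 0.5).

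All 3 V-ATPase subunits of the list were higher in AGS, where 35.7% of all tested genes were. The difference was large for 1 of them. ATP6V1A, the catalytic subunit of the cytosolic V1 sector, stood at 145 and 134 CPM in AGS control and estradiol and 50.9 and 52.5 CPM in HGC-27 (1.43 ± 0.06, adjusted p = 1.24e-73). ATP6V1H of the same sector stood at 37.9 and 40.4 against 34.3 and 30.8 CPM (0.26 ± 0.08). ATP6V0D1 of the membrane sector stood at 60.0 and 56.7 against 51.4 and 49.5 CPM (0.21 ± 0.07). Without the HGC-27 estradiol library neither passed (adjusted p = 0.0977 and 0.0609), and ATP6V1H did not pass in DESeq2 (0.0766).

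The wider pathway, 152 genes in 6 lists chosen beside the members, held 145 tested genes. Of these, 58 were higher in AGS and 54 in HGC-27, where 35.7% and 41.5% of all tested genes were, with a median log2 difference of 0.06. Among 32 tested core autophagy genes, 14 were higher in AGS and 12 in HGC-27. VAMP8, a SNARE that fuses autophagosome with lysosome, had 1044 and 1215 counts in the AGS pair against 4 and 2 for HGC-27, and ULK2, the relative of ULK1, had 0 in both AGS libraries and 353 and 321 in HGC-27, at least 112-fold higher there. VMP1, an endoplasmic reticulum scramblase, was 1.43 ± 0.06 higher in AGS and PIK3C3, the lipid kinase of the beclin 1 complex, was lower in AGS (-1.51 ± 0.09). Of 13 selective autophagy receptors 7 were higher in AGS, among them RETREG1, for the endoplasmic reticulum (2.09 ± 0.27), and OPTN (1.64 ± 0.08), and 3 in HGC-27, led by the mitophagy receptor BNIP3L (-1.88 ± 0.08) and the ferritin receptor NCOA4 (-0.34 ± 0.05).

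Other lysosomal hydrolases were higher in AGS for 16 and in HGC-27 for 13 of 33, where 35.7% and 41.5% of all tested genes were. These hydrolases included further enzymes nearly missing from a line or far lower in it. Cathepsin H (CTSH) had 3917 and 3935 counts in AGS control and estradiol and 11 and 27 in HGC-27 (7.69 ± 0.12), and the dipeptidase DPP7 differed by 4.60 ± 0.10. Sulfamidase (SGSH), an enzyme of heparan sulfate breakdown, had 1 count in each AGS library against 293 and 277 for HGC-27, a ratio of 283 (95% counting interval 78.1 to 2346), and IDS, which acts on the same substrate, had 15 and 28 against 512 and 512 (-4.58 ± 0.21). Of 26 tested membrane and cofactor proteins, 13 were higher in AGS, led by LAMP3 (5.78 ± 0.43, with 2 and 4 counts in HGC-27) and the sorting receptor SORT1 (3.37 ± 0.06), and 4 in HGC-27, led by TMEM106B (-1.14 ± 0.06) and the potassium channel TMEM175 (-0.85 ± 0.15).

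Of 18 other V-ATPase subunits tested, 9 were higher in HGC-27 and 5 in AGS, near the shares of all tested genes (41.5% and 35.7%). ATP6V0E2 had 0 counts in AGS against 841 and 639 for HGC-27 (at least 244-fold), and the isoform ATP6V0D2 had 0 and 3 against 53 and 65, a ratio of 39.1 (13.1 to 192). ATP6V1C1 (1.11 ± 0.07) and ATP6AP2 (0.79 ± 0.07) were higher in AGS. Of 23 tested genes of the MiT factor family and of mTORC1 control, the nutrient signalling complex at the lysosome surface, 13 were higher in HGC-27 and 3 in AGS. The Rag GTPase RRAGB had 0 counts in AGS against 448 and 345 for HGC-27 (at least 131-fold), and PRKAA2, a catalytic subunit of the energy sensor AMPK, had 0 against 451 and 470 (at least 154-fold). LAMTOR3, a part of the Rag anchor, and AKT1S1, an mTORC1 inhibitor, were higher in AGS (1.20 ± 0.09 and 0.94 ± 0.07).

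With estradiol, no member passed the test over both lines. Of 32, 0 had an adjusted p under 0.05 in edgeR with the line as a block (0.153% of all tested genes did, 0.115% higher and 0.0383% lower), 0 in DESeq2 and 0 in limma-voom. An unadjusted p under 0.05 was seen for 2 in edgeR (3.24% of all tested genes) and for 1 in each of the other tools. Fitted log2 changes ran from -0.28 (WIPI1) to 0.14 (ULK1), with 24 below 0 and 8 above, and their median was -0.04 beside -0.0007 over all tested genes. The 2 members with an unadjusted p under 0.05 were GLA and SQSTM1. GLA went from 44.4 to 36.8 CPM in AGS and from 50.6 to 45.3 CPM in HGC-27, a fitted -0.21 ± 0.08 (edgeR adjusted p = 0.85). SQSTM1 went from 310.6 to 280.7 CPM in AGS and from 278.0 to 266.7 in HGC-27, a fitted -0.10 ± 0.05 (adjusted p = 1). In both genes the estradiol library was the lower in each line, but neither difference is a call. Of the 152 wider genes, 0 of 145 tested passed in edgeR, with 3 at an unadjusted p under 0.05.

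Within each line, the libraries were set side by side without a test. In AGS, the estradiol library was slightly below the control library for most of these genes. Of 31 members with a mean of at least 100 counts in AGS, 27 had a log2 ratio below 0 and the 95% counting interval lay below 0 for 16 (51.6%) and above 0 for 0, where 15.5% and 14.2% of 10917 genes of that depth lay below and above. The median ratio was -0.09 against -0.0037 over those genes. Among members of at least 1000 counts the interval lay below 0 for 15 of 24, beside 16.8% of genes of that depth, and above it for 0, beside 17.9%. These intervals hold for 1 library against 1, so estradiol and any other difference between the libraries cannot be told apart.

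The 16 were 13 of 21 measured lysosomal members and 3 of 10 members that act before the lysosome. All 4 lipid handling genes lay below 0, with ASAH1 at -0.17 (interval -0.24 to -0.10), LIPA at -0.16 (-0.26 to -0.07), NPC2 at -0.15 (-0.21 to -0.08) and PSAP at -0.05 (-0.08 to -0.02). Of 5 measured proteases 4 did, CTSD at -0.18, TPP1 at -0.10, CTSA at -0.09 and CTSB at -0.06. Of 5 glycosidases 3 did, GLA at -0.27 (-0.39 to -0.15), NEU1 at -0.18 and GALC at -0.07. Of the autophagosome genes WIPI1 had the lowest ratio of all members, -0.54 (-0.85 to -0.23), from 205 to 150 counts, beside ATG9A and SQSTM1, both at -0.15. LAMP2 at -0.07 and ATP6V1A at -0.11 completed the 16. None of the 5 starvation switches and transcription factors did, TFEB included (-0.21, -0.51 to 0.10), and LAMP1 stood at -0.0074 (-0.04 to 0.03).

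**Figure D3:**
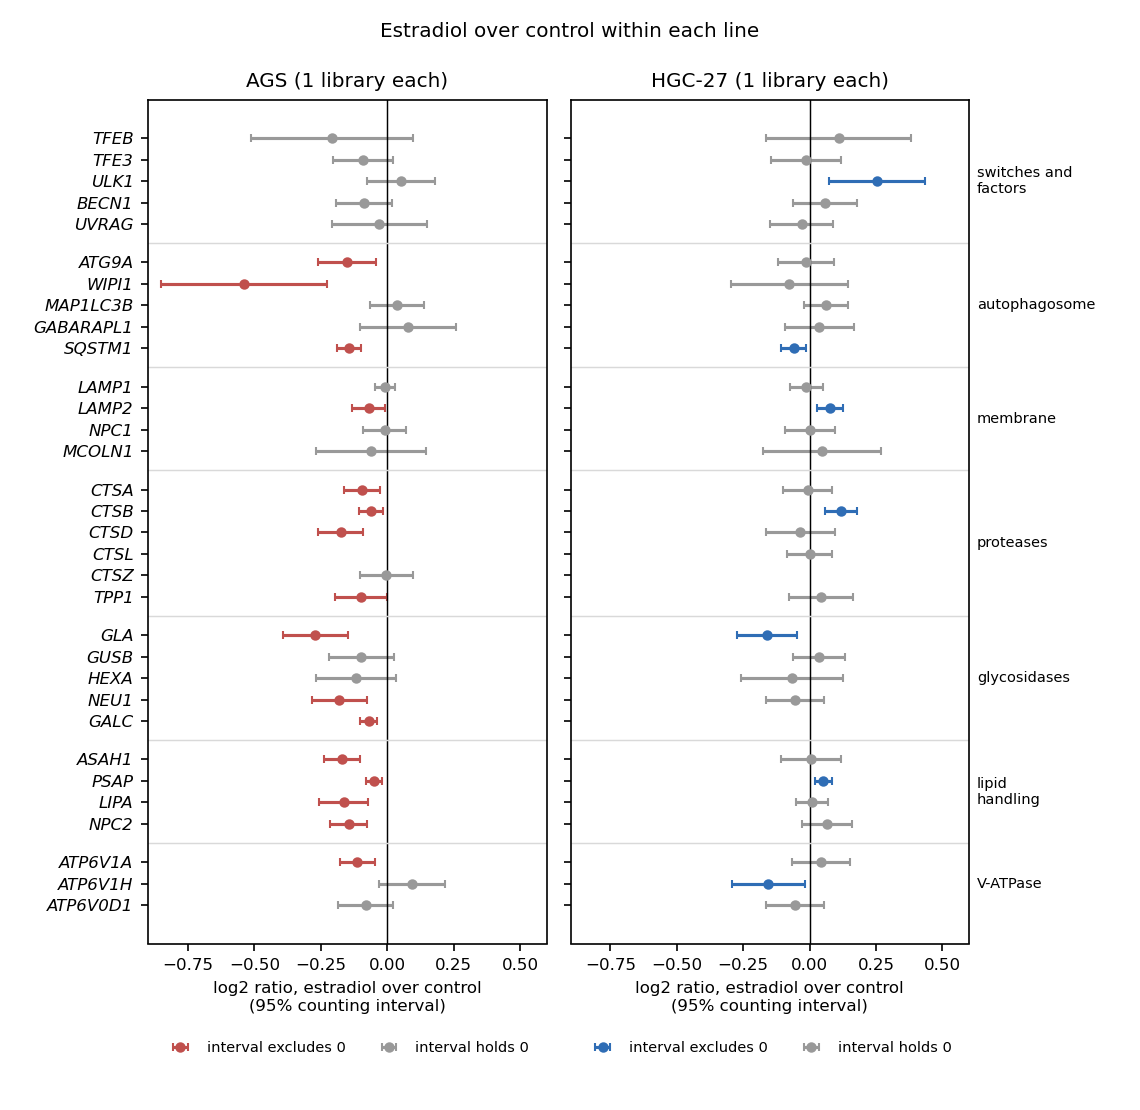
Log2 ratio of the estradiol over the control library within AGS (left) and HGC-27 (right) for each gene with a mean of at least 100 counts in the line, with its 95% counting interval; coloured where the interval excludes 0. In AGS 16 of 31 genes are coloured, all below 0, and in HGC-27 7 of 30, 4 above and 3 below.

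In HGC-27 the members stood around 0. Of 30 with a mean of at least 100 counts, the interval lay above 0 for 4 (13.3%, beside 10.8% of 11663 genes) and below 0 for 3 (10.0%, beside 14.6%), which is near the background, and the median ratio was 0.0032. Among members of at least 1000 counts the interval lay above 0 for 3 of 21 (beside 9.65% of genes of that depth) and below 0 for 2 (beside 22.1%). Above 0 were ULK1 at 0.25 (0.07 to 0.44), CTSB at 0.12 (0.06 to 0.18), LAMP2 at 0.08 (0.03 to 0.12) and PSAP at 0.05 (0.02 to 0.08). Below 0 were GLA at -0.16 (-0.27 to -0.05), ATP6V1H at -0.16 (-0.29 to -0.02) and SQSTM1 at -0.06 (-0.11 to -0.01). Of 29 members averaging 100 counts or more in both lines, 26 (89.7%) had the lower ratio in AGS, beside 46.7% of 9867 genes of that depth. Of 121 wider autophagy and lysosome genes of that depth, 72 (59.5%) did. The intervals lay below 0 in both lines for 2 of the 29, GLA and SQSTM1, beside 2% of the 9867 genes. With 1 library per line and treatment, the difference between the lines' responses could not be tested.

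The 6 wider lists were described in the same way, beside the shares of all genes (15.5% below and 14.2% above 0 in AGS, 14.6% and 10.8% in HGC-27). Of 29 other hydrolases of at least 100 counts in AGS, the interval lay below 0 for 9 and above for 1, and of 25 other membrane and cofactor proteins for 8 and 0. Other V-ATPase subunits gave 4 below and 2 above of 13, core autophagy genes 4 and 3 of 30, selective autophagy receptors 3 and 2 of 12, and MiT factors and mTORC1 control 3 and 2 of 18. In HGC-27 other hydrolases gave 3 below and 5 above of 30, membrane and cofactor proteins 1 and 1 of 24, V-ATPase subunits 3 and 1 of 14, core autophagy genes 3 and 1 of 30, receptors 2 and 4 of 11, and MiT factors and mTORC1 control 3 and 1 of 23. Over all wider genes, 31 of 127 lay below 0 and 10 above in AGS, and 15 and 13 of 132 in HGC-27. Differences between the lists were not tested.

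**Figure D4:**
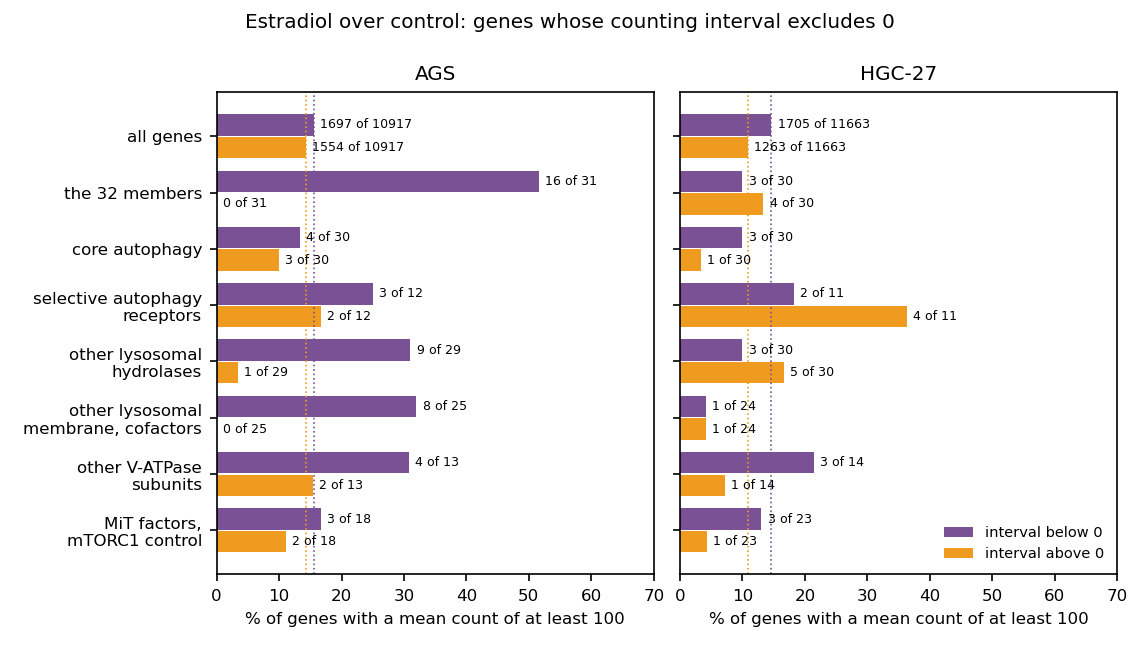
Share of genes (%) whose 95% counting interval for estradiol over control lies below 0 (purple) or above 0 (orange) within AGS and HGC-27, for all genes, the 32 members and 6 wider lists, with counts beside the bars; dotted lines mark the shares over all genes. In AGS the members reach 16 of 31 below 0 and 0 above.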

How the data were processed

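Total RNA of 4 libraries was extracted with TRIzol, per the labels' protocols. Reads were aligned with HISAT2 and counted with featureCounts, per the submitters' processing notes; versions, the strand setting and the handling of reads with several matches are not given in the sources used here. Gene by gene, the authors deposited whole-number counts, not normalized, with gene lengths. The notes name hg18, but start and end equal those of GENCODE 29 (GRCh38) for 31 of 32 members (all but GLA) and for 57464 of 58216 shared gene IDs, so coordinates are given as GRCh38.

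Counts were tested with edgeR 4.0.16 in R 4.3.3: TMM scaling, filterByExpr (18278 genes left, including all members), quasi-likelihood F-tests with line and treatment as terms, and Benjamini-Hochberg adjustment over all tested genes at 0.05. With 1 residual degree of freedom the spread is largely pooled over genes (prior degrees of freedom 397). That degree of freedom is the difference between the lines in their change with estradiol, so such a difference counts as spread in every test. SEs come from the log2 difference and its F statistic. Same-numbered libraries come from the same cell line (1 AGS, 2 HGC-27), which makes the pairing. Their deviations from the treatment means correlated at 0.989. With 1 library of each line per treatment, this value restates the line difference and cannot show any closer pairing. Within a line, log2 ratios used a prior of 0.5 counts and exact binomial 95% counting intervals, with no test. Alternatives were other scalings and filters, DESeq2 1.42.0, limma-voom (limma 3.58.1), no block, and left-out libraries. The procedure was checked on simulated counts with 50 changed genes at each fold. For estradiol it recovered 18 at 1.25-fold, 35 at 1.5-fold, 43 at 2-fold and 50 at 4-fold, so small changes were often missed. Between the lines it recovered 23, 42, 47 and 49. The members and the gene lists were chosen with earlier results of these data known. All members could be named; of each wider list, those named were the 2 called genes with the largest difference in each direction. Promoter sequences are from RefSeq (GRCh38.p14). A scaling, depth and GC check within lines was added after the data were seen.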

Additional observations from a re-analysis of the deposited data

Results flagged for a closer look

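For 3 of the 29 members averaging 100 counts or more in both lines, the estradiol library lay below the control library in AGS and above it in HGC-27, each beyond its 95% counting interval, beside 1.67% of 9867 genes of that depth. LAMP2 had a log2 ratio of -0.069 in AGS and 0.076 in HGC-27. CTSB had -0.061 in AGS and 0.12 in HGC-27, and PSAP had -0.050 and 0.052. The reverse was seen for 0 members and for 3.19% of those genes. Of 121 wider autophagy and lysosome genes of that depth, named here after their values were seen, 4 lay below 0 in AGS and above it in HGC-27: BNIP3L (-0.40 and 0.49), FUCA1 (-0.26 and 0.36), ATP6V1B2 (-0.16 and 0.09) and SLC17A5 (-0.10 and 0.20). SMPD1 showed the reverse (0.24 and -0.25). Each value is 1 library against 1, and the differences between the lines were not tested.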

How the results depend on the processing

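No member passed the estradiol test under any of the 9 other settings that gave a test, while the count over all genes moved from 28 to 13 with unscaled totals, 17 with a robust spread, 1 in DESeq2 and 0 in limma-voom. Without the replicate block it was 0, with 0 members, and that fit takes the line difference into the spread. Leaving out a line leaves no test for estradiol. Between the lines, members called ranged from 24 to 28 and all genes called from 13189 to 14408 when each library was left out in turn (a lone library is then assumed to vary like the others), and 25 members were called without GALC, CTSL and CTSZ. The calls that changed in any setting belonged to 7 members: TFEB, ATG9A, SQSTM1, NEU1, GLA, ATP6V1H and ATP6V0D1; no called difference changed sign. Other scalings and filters moved the median difference of all genes by at most 0.06. The 16 AGS ratios below 0 became 15 with the DESeq2 size factors and 15 with GC content and gene length taken out, with 0 above in each.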

Other observations

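The nearest protein-coding genes of the 3 enzymes that were near 0 in a line, looked up after their values were seen, did not follow a single pattern. NELFCD, a subunit of a complex that pauses RNA polymerase, ends 0.052 kb from CTSZ and had 4053 and 4225 counts in AGS control and estradiol and 4856 and 4166 in HGC-27, while CTSZ had 7 in each HGC-27 library. DAPK1, a death-associated kinase 16.9 kb from CTSL, was near 0 in AGS as CTSL was, with 1 and 0 counts against 299 and 264 in HGC-27. GPR65, 11.5 kb from GALC, had at most 7 counts in any library.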
